A study of Rattus norvegicus with 9 samples.

Results

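The accessible regions described here were the 1229 widest of 186719 in the rat DRG, chosen by width alone as those of at least 1500 bp from first to last base. They made up 0.658% of the regions and 3.39% of the covered bases, or 2.17 Mb of 64.1 Mb, and lay on all 21 chromosomes with deposited regions. Accessibility was measured by ATAC-seq, an assay in which a transposase (Tn5) cuts and tags exposed DNA, and more reads over a region mean that it was more open. The libraries came from the ipsilateral lumbar (L4 to L6) DRGs of adult female Sprague-Dawley rats, with 1 rat per library. In 2 rats the sciatic nerve had been loosely ligated 14 days before (chronic constriction injury, CCI), and 3 rats were naive. The naive rats had no sham surgery, so the effects of ligation, anaesthesia and incision cannot be told apart. The histone mark H3K4me1 had been mapped by ChIP-seq on pools of 3 rats, 2 pools per group, and only 1 merged list of its regions was used. The DRG holds sensory neurons, satellite glia, Schwann cells and other cells, and in bulk tissue a change in the share of a cell type and a change within its chromatin cannot be told apart. No list of cell type markers could be checked, since gene names were at hand for few regions.

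Most stretches of open chromatin are short and correspond to a nucleosome-free site where transcription factors bind. Wide open stretches are typical of CpG-rich promoters of broadly expressed genes and of places where several regulatory elements lie side by side. H3K4me1 is deposited on nucleosomes at enhancers and on the flanks of active promoters. Peripheral nerve injury is known to change the transcription of sensory neurons, and accessibility at such elements is a layer at which that change can be observed.

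Names were available for few of the wide regions. The study's lists of differentially accessible regions, which were chosen on these same rats, named 100 of the 1229 by exact coordinates. Of these, 57 lay within 1 kb of a transcription start site (TSS) and 43 farther away. A further 35 wide regions held a TSS placed from the listed distances of other regions of the same gene and the gene's strand in RefSeq. The other 1094 are given by position only, in the rn6 build.

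The promoters below show the sequence at which wide regions lay. They are the 250 bases before the RefSeq start (build GRCr8, whose positions do not carry over to rn6) of genes with an entry in the RefSeq table and a wide region listed within 1 kb of their TSS. Shown are the 4 with the smallest p among regions with positive log2 fold changes and the 3 among those with negative ones, described further on. Capitals mark GGGCGG, the GC box bound by Sp1-family factors, and CCAAT, searched on both strands, so that CCGCCC and ATTGG are marked too.
Msl1 (chr10:84251715-84251964, plus strand): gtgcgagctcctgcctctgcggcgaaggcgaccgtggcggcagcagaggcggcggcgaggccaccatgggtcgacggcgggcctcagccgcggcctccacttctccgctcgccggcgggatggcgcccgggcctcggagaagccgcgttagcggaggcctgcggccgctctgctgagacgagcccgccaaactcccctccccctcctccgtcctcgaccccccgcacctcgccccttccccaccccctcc
Ehmt2 (chr20:3940711-3940960, minus strand): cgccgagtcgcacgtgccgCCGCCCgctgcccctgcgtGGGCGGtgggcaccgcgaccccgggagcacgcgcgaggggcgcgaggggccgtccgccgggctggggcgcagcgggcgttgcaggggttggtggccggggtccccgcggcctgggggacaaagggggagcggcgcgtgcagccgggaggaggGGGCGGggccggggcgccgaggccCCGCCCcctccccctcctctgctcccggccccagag
Neurl1 (chr1:256007910-256008159, plus strand): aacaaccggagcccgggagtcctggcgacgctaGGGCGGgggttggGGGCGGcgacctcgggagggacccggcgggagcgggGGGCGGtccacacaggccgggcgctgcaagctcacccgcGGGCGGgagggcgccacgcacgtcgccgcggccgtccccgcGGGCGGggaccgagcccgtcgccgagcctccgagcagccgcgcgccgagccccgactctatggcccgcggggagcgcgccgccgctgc
Atp2a2 (chr12:39733269-39733518, plus strand): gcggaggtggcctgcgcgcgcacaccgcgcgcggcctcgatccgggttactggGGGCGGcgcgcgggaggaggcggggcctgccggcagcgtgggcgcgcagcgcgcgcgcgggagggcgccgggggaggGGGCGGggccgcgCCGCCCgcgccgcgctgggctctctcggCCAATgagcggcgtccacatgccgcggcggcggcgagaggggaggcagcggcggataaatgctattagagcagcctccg
Erbb4 (chr9:78045607-78045856, minus strand): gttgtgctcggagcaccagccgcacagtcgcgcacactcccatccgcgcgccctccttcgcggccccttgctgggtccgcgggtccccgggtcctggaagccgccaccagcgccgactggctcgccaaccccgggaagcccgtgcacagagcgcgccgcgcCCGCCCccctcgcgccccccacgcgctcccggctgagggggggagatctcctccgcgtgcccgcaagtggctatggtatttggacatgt
Gucy1a2 (chr8:8784962-8785211, plus strand): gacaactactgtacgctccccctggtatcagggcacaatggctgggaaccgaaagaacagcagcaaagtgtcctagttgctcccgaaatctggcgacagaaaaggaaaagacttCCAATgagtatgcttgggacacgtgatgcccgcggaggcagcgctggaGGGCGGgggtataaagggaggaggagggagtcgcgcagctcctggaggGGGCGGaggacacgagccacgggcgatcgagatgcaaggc
Arhgap11a (chr3:121061469-121061718, minus strand): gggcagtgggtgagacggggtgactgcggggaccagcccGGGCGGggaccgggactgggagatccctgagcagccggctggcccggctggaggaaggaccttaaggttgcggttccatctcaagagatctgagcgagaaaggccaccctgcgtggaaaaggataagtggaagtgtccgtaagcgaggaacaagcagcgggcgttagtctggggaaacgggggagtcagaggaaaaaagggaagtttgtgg

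The Msl1 window held neither motif, whereas Neurl1 held 5 GC boxes, Ehmt2 4 and Atp2a2 3. G and C made up 83.2% of the Ehmt2 window and 59.6% of the Gucy1a2 window. Over the 78 genes of wide regions with a promoter in the RefSeq table, of 92 sought, the median window had 67.2% G and C and 24 CpG dinucleotides. Over all 27457 RefSeq promoters of the same length, the medians were 52.0% and 6. GGGCGG was present in 73.1% of the wide-region promoters and 32.4% of all promoters, CCAAT in 32.1% and 34.3%, and TATAAA in 8.97% and 13.1%, each on either strand. The promoters of listed genes with narrower regions within 1 kb of the TSS had a median of 62.0% G and C, and 65.3% of 505 held GGGCGG. Of the same 505, 36.4% held CCAAT and 4.75% TATAAA, a lower share of TATAAA than in the wide-region promoters. A match to these letters is a description of the window and not a binding site.

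In width, the members ran from 1500 to 4028 bp with a median of 1672 bp, against 244 bp for the narrower regions. The region at chr17:11756626-11760653 was the widest, at 4028 bp, and held 671, 639, 662, 619 and 599 normalized reads in CCI rats 1 and 2 and naive rats 1 to 3, in that order. Its log2 fold change of CCI over naive was 0.06 ± 0.31 (SE). A normalized read is a read divided by the library's size factor, which sets its uniquely aligned reads against those of the smallest library, from naive rat 2. The 4 next widest, at chr9:8772918-8776830, chr18:41907557-41911448, chr2:161574604-161578277 and chr9:70039350-70042885, measured 3536 to 3913 bp and had log2 fold changes of -0.26 to -0.03. None of the 5 passed the test described below.

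At the 1500 bp limit, the members just inside and just outside were alike in kind. The 3 narrowest members, each of 1500 bp, averaged 38.3, 66.4 and 224 normalized reads per kb. The 3 widest regions left out, of 1498 to 1499 bp, averaged 59.6, 112 and 308.

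Per base, the wide regions were more open than the narrower ones. Their median density was 163 and 119 normalized reads per kb in the CCI rats, and 123, 146 and 123 in the naive rats. The median of the narrower regions lay between 37.5 and 45.8 in the same libraries. The ratio of these medians was 2.71 to 3.89 over the 5 rats, with no separation of the groups. The median density was 38.5 at 150 to 249 bp, 117 at 1000 to 1249 bp and 126 from 1.25 kb up to the limit. Among the members it was 139 at 1500 to 1749 bp, 140 at 1750 to 1999 bp, 125 at 2000 to 2499 bp and 120 above. Regions were called from these reads, so the relation of width to density describes the calls.

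**Figure D1:**
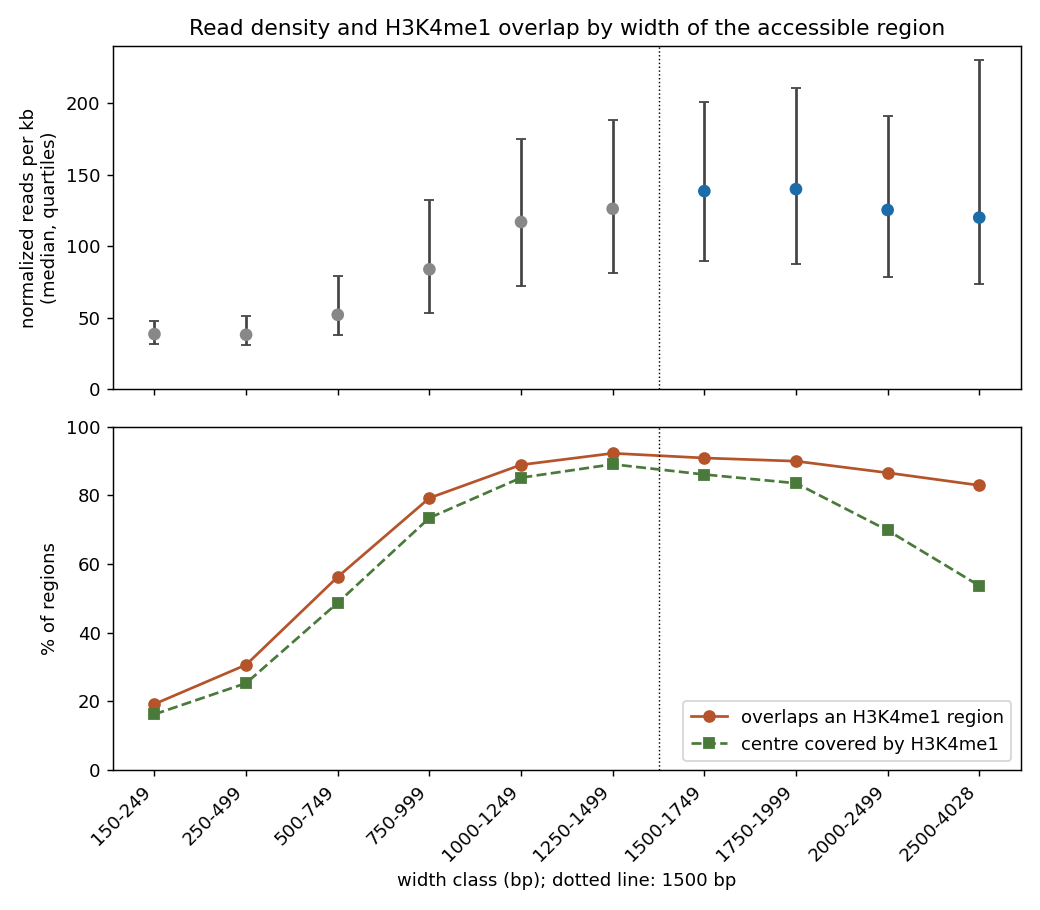
Normalized reads per kb (top, median and quartiles over regions of the mean of 5 rats) and the percentage of regions that overlap H3K4me1 by at least 1 bp or have their centre covered by it (bottom), by width class in bp. Blue points are the members, whose median density was highest, at 140, from 1750 to 1999 bp, and whose H3K4me1 cover at the centre was 53.7% in the widest class.

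H3K4me1 lay over most members. Of the 1229, 1105 (89.9%) overlapped a region of the merged H3K4me1 list, against 30.9% of the narrower regions, and 844 were covered over their whole length. The overlapping H3K4me1 regions were long, with a median of 3386 bp against 1216 bp for those that overlapped narrower regions. The share of members with a covered centre was 86.1% at 1500 to 1749 bp, 83.5% at 1750 to 1999 bp, 69.8% at 2000 to 2499 bp and 53.7% above. Cover by H3K4me1 was not particular to the members. Of the narrower regions from 1.25 kb up to the limit, 92.3% overlapped H3K4me1 and 89.1% had a covered centre. At 1000 to 1249 bp these shares were 88.9% and 85.1%. An overlap of 1 bp is easier to reach for a wide region, which does not hold for the cover at the centre. The 124 members with no H3K4me1 had a median density of 67.9 normalized reads per kb, and the overlapping members 142. Of these 124, 31 lay on chromosome 1 and 15 on chromosome 2, which held 172 and 106 of all 1229 members, the most of any chromosome.

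The share of each library that fell in the wide regions did not separate the groups. They took 8.04% and 7.47% of the reads in accessible regions in the CCI rats, and 7.58%, 7.99% and 7.70% in the naive rats. The CCI mean was 7.76% ± 0.40 (SD, n = 2) and the naive mean 7.76% ± 0.21 (SD, n = 3). The exact permutation test over the 10 splits of the 5 rats, two-sided, gave p = 1, where 0.1 is the smallest value it allows. The median log2 level of the wide regions exceeded that of the narrower ones by 4.55 and 4.20 in the CCI rats and by 4.26, 4.68 and 4.39 in the naive rats. These values overlapped as well (exact permutation p = 0.8).

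Rats of the same group differed widely in these regions. CCI rat 1 had the highest normalized value of the 5 rats in 665 members (54.1%) and CCI rat 2 in 19 (1.55%). Among naive rats, naive rat 2 was highest in 309 members, naive rat 1 in 133 and naive rat 3 in 103. CCI rat 1 exceeded CCI rat 2 in 1049 members (85.4%), with a median difference of 0.42 on the log2 scale, whereas it did so in 55.9% of all regions. Between the highest and the lowest rat, a member spanned a median of 0.68 on the log2 scale. The fold changes between groups are to be read against this spread.

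Single members were compared between CCI and naive rats on the deposited scale. The moderated test of limma, two-sided and with the variance modelled on the mean, was applied to log2(normalized reads + 1). It was fitted to all 186719 regions with Benjamini-Hochberg adjustment over all of them. The SE given with each fold change comes from this fit, in which a region's variance is drawn toward the trend over all regions. It does not measure the spread of the rats in that region. At an adjusted p below 0.05 the test called 8 of the 1229 members (0.651%), where 0.344% of all regions were called. This share varied with width and was not highest in the members. It was 0.0344% at 150 to 249 bp, 1.33% at 750 to 999 bp, 1.20% at 1000 to 1249 bp and 0.55% from 1.25 kb up to the limit. Of the 8, 3 were higher after CCI (0.107% of all regions were) and 5 were lower (0.237% of all). Over all regions 643 were called, and 1508 with median-of-ratios scaling, 1223 with TMM (trimmed mean of M-values), 4069 with quantile normalization and 493 with DESeq2. Among the members, the counts of higher and lower calls moved to 13 and 14 with median-of-ratios scaling and 3 and 11 with TMM. They were 140 and 125 with quantile normalization and 22 and 5 with DESeq2. Without CCI rat 2 they were 34 and 7, and without CCI rat 1 0 and 5. The median log2 fold change of the members was 0.04, with quartiles of -0.18 and 0.32, against 0.13 for all regions, and 1000 members (81.4%) lay within 0.5 of 0. Scaling the libraries by median-of-ratios put these medians at -0.06 and 0.04. Removing the median of each 1 Mb window put them at -0.14 and -0.05, and this alternative shifted all regions by more than 0.1. The members' median thus lay about 0.09 below that of all regions under each of these scalings, but it lay 0.09 above it without CCI rat 2 and 0.18 below it without CCI rat 1. The difference was -0.05 with quantile normalization, -0.03 with a pseudocount of 10 and -0.005 without naive rat 2.

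**Figure D2:**
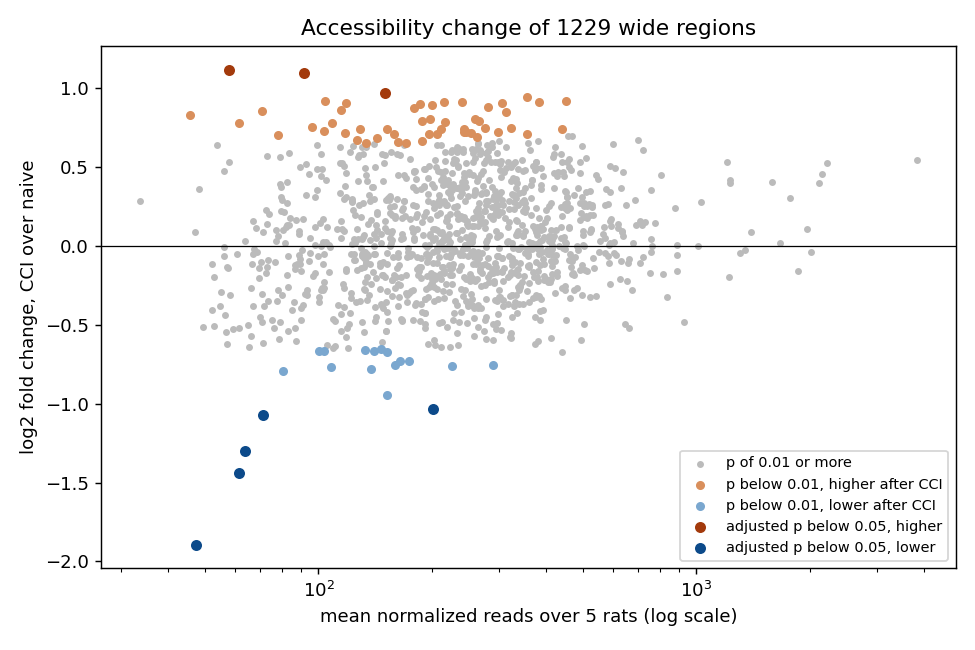
Log2 fold change of CCI over naive rats for each of the 1229 wide regions, against its mean normalized reads over 5 rats (log scale). The 8 regions at an adjusted p below 0.05 are in dark colours, and 7 members lie at or beyond 1 in either direction.

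The largest fall was in an unnamed region of 1825 bp at chr17:89653330-89655154, which overlapped no H3K4me1. It held 18.0 and 13.3 normalized reads in the CCI rats and 27.1, 86.0 and 92.7 in the naive rats. Both CCI values lay below all naive values, but naive rat 1 was far closer to the CCI rats than to the other naive rats. Its log2 fold change was -1.89 ± 0.30 (SE, limma adjusted p = 5.53e-06), and this SE does not measure the wide spread of the naive rats. The region stayed below the threshold when any naive rat was left out. The counts behind it were 27 to 141 reads per library.

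A region of 2301 bp at chr3:143956477-143958777 had 21.4 and 32.1 normalized reads in the CCI rats and 89.9, 32.0 and 133 in the naive rats. Here the groups overlapped, because naive rat 2 was as low as the CCI rats. Its log2 fold change was -1.44 ± 0.28 (SE, limma adjusted p = 0.00079), and without naive rat 1 or 3 the adjusted p was 0.141 and 0.172.

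The region listed for Vom1r25, a vomeronasal receptor gene 430233 bp away, lay at chr8:3109310-3110946. It held 25.4 and 43.5 normalized reads after CCI and 93.4, 74.0 and 84.1 in the naive rats, so that the groups were separate. The log2 fold change was -1.30 ± 0.27 (SE, limma adjusted p = 0.00285). An unnamed region of the same chromosome at chr8:40957096-40958812, without H3K4me1, went from 92.1, 79.0 and 101 in the naive rats to 40.7 and 44.4. Its log2 fold change was -1.07 ± 0.26 (SE, limma adjusted p = 0.0256).

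The nearest listed gene to the called region at chr2:151099999-151101620 was P2ry1, which encodes an ADP receptor expressed by sensory neurons and glia. This region lay 214008 bp from the TSS and 99.3% of it was covered by H3K4me1. It held 118 and 126 normalized reads in the CCI rats, and 272, 279 and 207 in the naive rats, all of which were higher. The log2 fold change was -1.03 ± 0.26 (SE, limma adjusted p = 0.0274). It was the most deeply covered of the 5 called falls, with 177 to 834 reads per library.

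The 3 called rises lay on chromosomes 10 and 5. The region listed for Abhd15, a gene of lipid metabolism in fat cells, lay at chr10:62622645-62624213, 25415 bp from the TSS. It held 166 and 105 normalized reads after CCI against 57.5, 72.0 and 55.9. Its log2 fold change was 1.10 ± 0.26 (SE, limma adjusted p = 0.0154). The region listed for Mtfr1l, a gene for a mitochondrial protein, lay at chr5:152793562-152795177, 47782 bp from the TSS. It held 104 and 66.8 against 32.0, 29.0 and 58.5. Its log2 fold change was 1.12 ± 0.27 (SE, limma adjusted p = 0.0242). The region listed for Tac4, which encodes the precursor of tachykinin peptides related to substance P, lay at chr10:83078269-83079803, 2132 bp from the TSS. It held 225 and 194 against 78.1, 148 and 104, with a log2 fold change of 0.97 ± 0.25 (SE, limma adjusted p = 0.0418). In all 3 both CCI rats were above all naive rats.

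**Figure D3:**
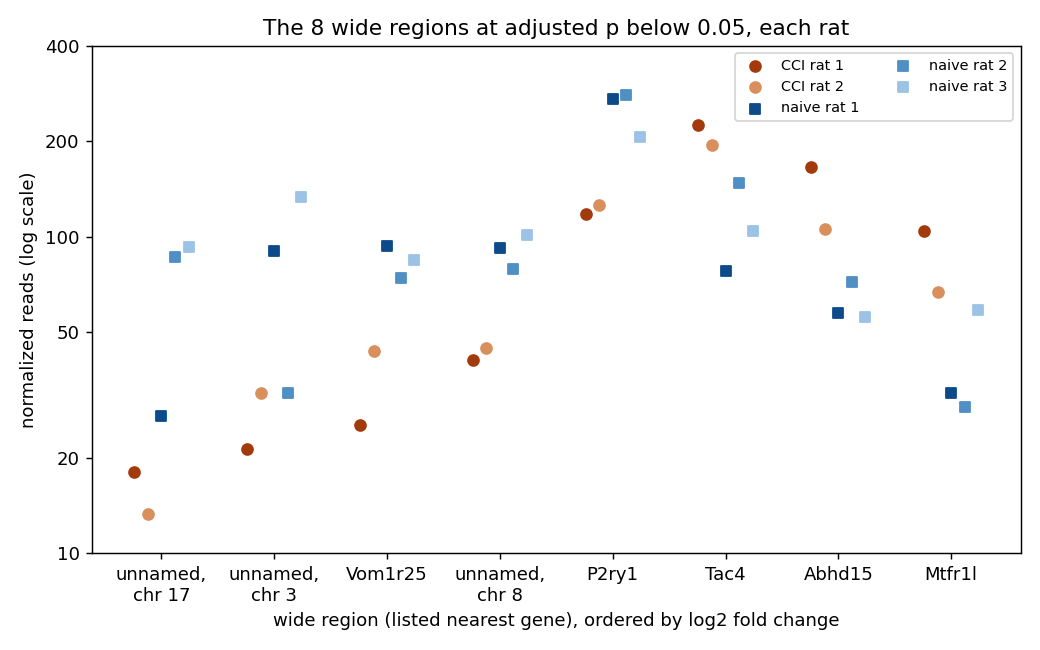
Normalized reads (log scale) of each rat in the 8 wide regions at an adjusted p below 0.05, ordered by log2 fold change, with circles for CCI and squares for naive rats. The groups are separate in 7 of the 8 and overlap in the unnamed region on chromosome 3.

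Of the 8 calls, 7 were also called by edgeR's quasi-likelihood test and 5 by DESeq2, and in DESeq2 the regions on chromosomes 17 and 3 and that of Mtfr1l were at adjusted p of 0.0908, 0.228 and 0.0775. Without the mean-variance trend, limma called none, and 1 member was at an unadjusted p below 0.01. Without CCI rat 1, 1 of the 8 stayed below the threshold, without naive rat 1 also 1, without naive rat 3 3, without naive rat 2 6 and without CCI rat 2 all 8. Each kept its direction when a rat was left out, with log2 fold changes of 0.75 to 1.43 for the rises and -2.45 to -0.93 for the falls. Those of the unnamed chromosome 8 region stayed between -1.16 and -0.99, and those of P2ry1 between -1.17 and -0.96. The surroundings moved with the 3 rises. All regions within the same 1 Mb window had a median log2 fold change of 0.66 for Abhd15, 0.68 for Mtfr1l and 0.70 for Tac4. Around the falls, this median was 0.07 for the chromosome 17 region, -0.58 for the chromosome 3 region and -0.02 for Vom1r25. It was -0.16 for the unnamed chromosome 8 region and -0.35 for P2ry1. With the window medians removed, 2 of the 8, the chromosome 17 region and that of Vom1r25, kept an adjusted p below 0.05, and none of the 3 rises did. That of P2ry1 was then at an adjusted p of 0.0531. Whether the regional level has a part in the rises or the falls was not tested.

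At an unadjusted p below 0.01, 52 members were higher after CCI (4.23%, where 2.13% of all regions were) and 20 lower (1.63%, where 1.46% of all were). The share at this p varied with width, and 6.09% of the regions from 1.25 kb up to the limit and 9.72% of those of 750 to 999 bp passed in either direction. Both CCI rats were above all naive rats in 177 members (14.4%, and 18.2% of all regions) and below them in 192 (15.6%, and 11% of all regions). The balance of directions changed with the scaling and with single rats. Higher and lower counts were 49 and 82 with median-of-ratios scaling, 33 and 63 with TMM scaling, 211 and 196 with quantile normalization and 4 and 47 with the 1 Mb window medians removed. Without CCI rat 1 they were 8 and 57, and without CCI rat 2 200 and 26. Of all regions at this p, 3968 of 6703 were higher on the deposited scale, and 2699 of 7452 with median-of-ratios scaling. With TMM 2338 of 6975 were higher, with quantile normalization 4359 of 10298 and with window medians removed 913 of 6235. The balance thus moved over all regions and not only among the members. Of the 52 higher members, CCI rat 1 was above CCI rat 2 in 51.

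Among the other members with the smallest p on the lower side was the region listed for Spry2, which encodes an inhibitor of receptor tyrosine kinase signalling, 249052 bp away at chr15:89925995-89927505. It held 111 and 84.7 normalized reads after CCI and 185, 189 and 187 in the naive rats, which lay very close together. The log2 fold change of -0.94 ± 0.25 (SE) missed the threshold at a limma adjusted p of 0.0529, and with window medians removed it was -1.16 at an adjusted p of 0.0018. Erbb4, a neuregulin receptor, and Gucy1a2, a subunit of soluble guanylate cyclase, had wide regions within 1 kb of their TSS with log2 fold changes of -0.75 and -0.76 and groups that did not overlap. The rest of the 10 on this side, listed for RGD1307595 or unnamed, at chr2:137349089-137350807, chr18:611965-614083 and chr19:28986400-28988097, had values of -0.79 to -0.77.

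On the higher side, the members after the 3 called included those listed for Nf1x (spelled as in the lists), Hmga1, RGD1564450, Msl1, Ehmt2 and Ddx6. Hmga1, an architectural chromatin protein, had its wide region at chr20:7131670-7133773 with 376 and 227 normalized reads after CCI against 126, 189 and 155. Its neighbour listed for RGD1564450 lay 9.47 kb along, start to start, and held 274 and 237 against 122, 178 and 116. In these 6 regions both CCI rats were above all naive rats, with log2 fold changes of 0.87 to 0.91. With limma, their adjusted p was 0.0718 to 0.0911.

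The gene groups were formed from the listed genes, so the direction of their members had been selected on these rats and is given as a description. Of all 100 listed wide regions, 79 had positive values, 43 were higher at an unadjusted p below 0.01 and 8 lower, and the groups are to be read against these shares. Of 12 regions of chromatin and transcription regulators, 11 had positive values and 8 of these were at an unadjusted p below 0.01, with none past the adjusted threshold. They included Msl1, of the MSL histone acetyltransferase complex, at 0.91, Ehmt2, a histone H3 lysine 9 methyltransferase, at 0.89, Cdk9, the kinase that releases paused RNA polymerase II, at 0.91, and Kdm6b, a histone H3 lysine 27 demethylase, at 0.81. Tdrd3, a Tudor domain protein that binds methylated arginine, had -0.59. Its region was the densest of the group, with 421 and 339 normalized reads after CCI against 526, 614 and 575.

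All 4 wide regions of transcription factors had positive values of 0.65 to 0.90, and 3 were at a p below 0.01. The region listed for Srebf1 lay 34572 bp from the TSS. In the region of Cebpb, a bZIP factor of injury and inflammatory responses, the rats held 377 and 264 against 157, 235 and 183. The signalling group was mixed, with 4 positive and 3 negative values, of which 1 and 2 were at a p below 0.01. Notch1 had 0.64, Wnt10b 0.71 and Dvl1, which passes on Wnt signals, 0.60, and Ppp1r14c, an inhibitor of protein phosphatase 1, had -0.64. The regions listed for Notch1 and Wnt10b lay 28915 and 16273 bp from the TSS. Both histone gene regions, Hist1h2an and Hist1h2bh, had negative values of -0.62 and -0.53 with separate groups, at unadjusted limma p of 0.0151 and 0.0464. The region listed for Hist1h2an lay 12232 bp from the TSS.

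Of the cytoskeletal and transport genes, Actg1 (gamma actin), Pfn1 (profilin), Kif1c (a kinesin) and Cdc42ep4 had values of 0.62 to 0.91. Arhgap11a, a GTPase-activating protein, had -0.73, and with the window medians removed -1.23 at an adjusted p of 0.00115. All 7 regions of RNA processing and translation genes had positive values, from 0.56 for Qrich1 to 0.87 for Ddx6, an RNA helicase, and 2 were at a p below 0.01. In the nerve and receptor group, 6 of 8 regions were positive, 5 of them at a p below 0.01 and Tac4 past the adjusted threshold. The 2 negative ones were P2ry1, also past it, and Gucy1a2. Atp2a2, the calcium pump of the endoplasmic reticulum, had 489 and 290 against 189, 263 and 172 normalized reads. Neurl1, a ubiquitin ligase, had 208 and 114 against 82.3, 90 and 80.2. Grn, which encodes progranulin, had 2 wide regions, at 0.79 and 0.60, listed at 7043 and 34766 bp from the TSS.

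With the 1 Mb window medians removed, the positive values of these groups became smaller than 0.44, and those of Hmgn2, Sbno1 and Eif5a turned to -0.03, -0.09 and -0.04. None of the positive ones was then at a p below 0.01. The negative ones lay between -1.23 and -0.51, and those of Spry2, Erbb4, P2ry1, Hist1h2an and Arhgap11a were at a p below 0.01. Over all 186719 regions, 6235 were at this p with window medians removed, and only 913 of them were higher. Among all members 4 were higher and 47 lower, so this balance was not particular to the gene groups.

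**Figure D4:**
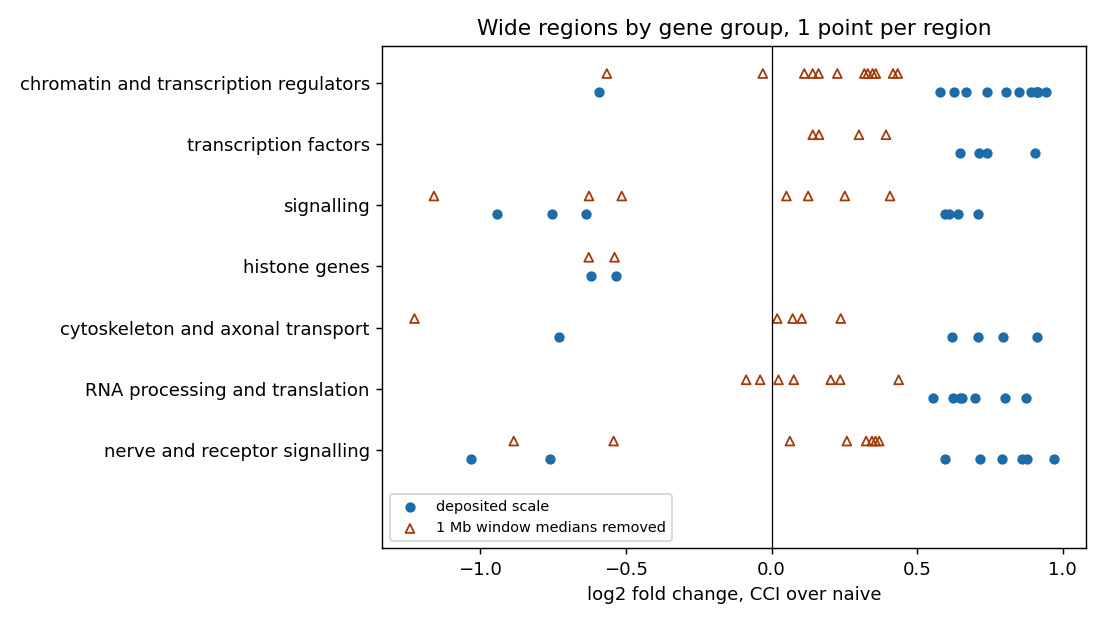
Log2 fold change of CCI over naive for each wide region whose listed gene falls in 7 gene groups, on the deposited scale (filled) and with the median of its 1 Mb window removed (open triangles). The positive values moved to below 0.44 when the window median was removed, and the negative ones then lay between -1.23 and -0.51.

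The 35 unlisted members that held a placed TSS were not in the lists themselves, and their median log2 fold change was -0.05, with 17 positive and 18 negative. None was at a p below 0.01. The study's lists hold regions chosen as changed on these same rats, so leaving out listed members favoured those with little change. The 35 are thus no unselected counterpart to the gene groups. The genes at either end, chosen after their values were seen, were Pgr, the progesterone receptor, at -0.52 and Dtnbp1, which encodes dysbindin, at 0.52. With the window medians removed, that of Dtnbp1 was -0.07. The Rap2b region was among the densest, with 637 and 428 normalized reads after CCI against 735, 778 and 735, and that of Ednrb, an endothelin receptor, held 97.5 and 102 against 143, 149 and 114. Both had separate groups, at log2 fold changes of -0.52 and -0.42.

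The median change of the members differed between chromosomes, as did that of all regions. On chromosome 10, the median log2 fold change of 71 wide regions was 0.57, and 40 had both CCI rats above all naive rats. Of all regions, 18.2% were separate in this way, and that share was not taken for chromosome 10 alone. The median of the wide regions was 0.30 on chromosome 5, 0.28 on chromosome 12 and 0.21 on chromosome 20, and -0.16 on chromosome 2 (106 regions) and -0.17 on chromosome X (36 regions). All regions of the same chromosomes had medians of 0.49, 0.17, 0.49, 0.25, -0.03 and -0.12, in that order. Chromosome 10 held 19 of the 52 higher members at a p below 0.01 and none of the 20 lower. Of all regions, 2.13% were higher and 1.46% lower at this p, and these shares too were not taken for chromosome 10 alone. In each rat, the median log2 level of the chromosome 10 members minus that of the other members was 0.35 and 0.29 in the CCI rats, and -0.23, -0.01 and -0.15 in the naive rats. The groups were separate, at the smallest p the exact permutation test allows (p = 0.1), and the chromosome had been chosen after its values were seen. Removing the window medians left a median of 0.02 on chromosome 10.

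**Figure D5:**
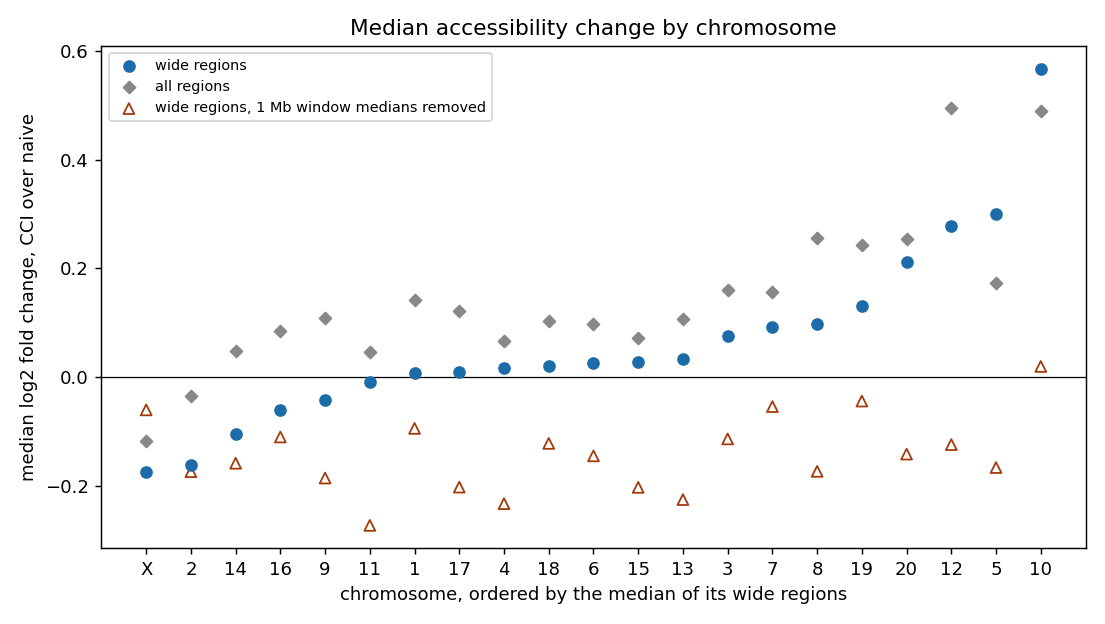
Median log2 fold change of CCI over naive by chromosome for the wide regions (circles), all regions (diamonds) and the wide regions with 1 Mb window medians removed (open triangles). Chromosome 10 has the highest median of the wide regions, 0.57, and the medians lie between -0.27 and 0.02 once the windows are removed.

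Members with and without H3K4me1 had different medians of change. The 1105 with overlap had a median log2 fold change of 0.07 and the 124 without it -0.25, where the narrower regions had 0.15 and 0.12. Among those with overlap, 50 were higher and 11 lower at a p below 0.01, and among those without, 2 were higher and 9 lower. Of all regions, 2.13% were higher and 1.46% lower at this p. These shares were not split by H3K4me1 overlap, so the counts are given as a description. In each rat, the median log2 level with overlap minus that without was 1.54 and 0.92 after CCI, and 0.64, 1.02 and 0.72 in the naive rats. CCI rat 1 was set apart and CCI rat 2 lay within the naive range, so the difference of 0.43 did not exceed the spread between rats (exact permutation p = 0.3).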

How the data were processed

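The authors aligned the ATAC-seq reads to rn6 with Bowtie2, called regions with MACS2 in each library and counted reads over the merged regions. The signal that they deposited is a read number over a size factor of the library, and multiplying back gave whole reads for 100% of the values within a rounding of 0.005. Between 4633807 and 13248437 reads per library fell in regions, and no member had fewer than 18 in any library. These limits cover counting error only. The H3K4me1 list was deposited as positions, and overlaps of at least 1 bp were taken with bedtools 2.31.1. Program versions other than CASAVA 1.8.2, from the submitters' processing notes, are not given in the sources used here.

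CCI and naive rats were compared on log2(signal + 1) over all regions with limma 3.58.1 (R 4.3.3), without covariates. The added 1 makes fold changes of weak regions too small. Alternatives used edgeR 4.0.16 and DESeq2 1.42.0 on the recovered reads, other scalings and widths, and leaving out each rat. Window medians were taken over all regions of each 1 Mb, or over the chromosome where a window held under 20 regions. Tables were made in Python 3.11.15, and the tests were tried on simulated data.

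Named by rule were the 10 regions with the smallest p in each direction with separate groups, the 5 widest, the 5 densest, 3 on each side of the width limit and those of the gene groups. 1 region that the rule named is not reported here. Other regions were named after their values were seen. The members, gene groups and tests were chosen with earlier results of these data known. Gene names came from the study's lists, and no rn6 annotation was used here. The list of differential regions with H3K4me1 was read in a shortened form of 1998 entries, and the fold changes and p-values in these lists were not used.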

Additional observations from a re-analysis of the deposited data

How the results depend on the processing

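The count of 8 wide regions at an adjusted p below 0.05 (3 higher, 5 lower) was 20 (7 and 13) with a limit of 1.25 kb and 1 (0 and 1) with 2 kb, where fewer or more regions were counted. It was 27 (13 and 14) with median-of-ratios scaling, 14 (3 and 11) with TMM, 265 (140 and 125) with quantile normalization, 27 (22 and 5) with DESeq2, and 0 (0 and 0) with limma without a trend, where 1 was at a p below 0.01. Over all regions, the calls moved from 643 to 1508, 1223, 4069, 493 and 0 in the same order. With only H3K4me1-overlapping regions tested, 5 members were higher. The unadjusted rule gave 72 (52 and 20). Leaving out 1 rat gave 1 to 41 calls, 0 to 34 higher and 1 to 7 lower. The cause was not tested. At p below 0.01, the 52 higher and 20 lower became 133 and 72 with a limit of 1.25 kb, 5 and 4 with 2 kb, 49 and 82 with median-of-ratios, 33 and 63 with TMM, 211 and 196 with quantile normalization, 4 and 47 with window medians removed, 0 and 1 without a trend, 92 and 39 with DESeq2, and 49 and 10 with only H3K4me1-overlapping regions. Leaving out 1 rat gave 6 to 200 higher and 7 to 57 lower. These alternatives at p below 0.01 were added after seeing the data, and over all regions the balance of directions moved too. The median log2 fold change ranged from -0.14 to 0.26 over all alternatives, within the spread between rats. The CCI-minus-naive difference in the share of reads, -0.00209 percentage points, was 0.00186 at equal depth and -0.288 to 0.284 when a rat was left out. That in the level relative to narrower regions, -0.0687, was 0.0139 with a pseudocount of 10 and -0.240 to 0.103 when a rat was left out. Of 72 named regions, 12 changed sign under some alternative, none of them past the threshold. With window medians removed, Hmgn2, Sbno1, Eif5a, Dtnbp1 and Gas8 went to -0.030, -0.087, -0.039, -0.072 and -0.028, and chr3:8632030-8633529, chr4:146546803-146548834, chr14:22482765-22484264 and chr1:55703946-55705883 to -0.196, -0.143, 0.064 and 0.025. The widest region, chr17:11756626-11760653, went to -0.037, -0.049 and -0.038 with median-of-ratios, TMM and quantile scaling. Leaving out 1 rat gave -0.300 to 0.035 for chr14:22482765-22484264, -0.284 to 0.156 for chr15:31257406-31258905, -0.165 to 0.113 for chr9:70039350-70042885 and -0.093 to 0.013 for chr1:55703946-55705883.

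The replicate block, which pairs CCI and naive rats of the same number, left 1 call (0 higher, 1 lower), and 1 higher and 3 lower at p below 0.01. It put chr9:70039350-70042885 at 0.015. The rats are different animals and the labels do not pair them. Deviations from the group means over the wide regions correlated at -0.45 and -0.51 for the same numbers and at 0.51 and 0.45 for crossed numbers. With 2 CCI rats these deviations mirror each other, so the crossed values follow from the others, and the block was not used as a pairing.

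The depth of 18 or more reads per member and the 5 rats limit the precision. With 2 against 3 rats the exact test cannot go below 0.1.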

Other observations

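Wide regions lay in clusters in places, which were described after their values were seen. With neighbours at most 50 kb apart, 83 members formed 21 clusters of at least 3. A cluster of 8 at chr17:89389523-89461859, 72.3 kb long, had densities of 408 to 1239 normalized reads per kb. Averaged over its regions, the density was 793 and 817 in the CCI rats and 920, 384 and 601 in the naive rats. Naive rat 2 was the lowest of the 5. The called region at chr17:89653330-89655154 lay less than 1 Mb away, and there naive rat 1 was the lowest of the naive rats.

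Another cluster of 8 at chr7:2100477-2229020 had 2 members with H3K4me1 overlap and densities of 62.6 to 164. On chromosome 1, 4 members at chr1:55702078-55730935 averaged 745 and 709 in the CCI rats and 768, 699 and 728 in the naive rats, which overlap. The cluster of 4 at chr10:57274714-57322958 holds the regions of Pfn1 and Kif1c. It averaged 230 and 165 after CCI and 114, 137 and 114 in the naive rats, which do not overlap. All regions of its 1 Mb window had a median log2 fold change of 0.67. With the window medians removed, its 4 members lay between -0.28 and 0.10.

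The 5 densest wide regions lay at chr19:56337633-56339321, chr17:89455018-89456746, chr12:1509713-1511390, chr1:55703946-55705883 and chr4:146546803-146548834. The first was listed for Gas8, a gene for a protein of motile cilia whose TSS lay 22033 bp away. This region was covered by H3K4me1 over its whole length. It held 5248 and 4184 normalized reads after CCI and 2719, 3496 and 3478 in the naive rats, at a log2 fold change of 0.55 ± 0.50 (SE), which was -0.03 with the 1 Mb window median removed. The other 4 had log2 fold changes of -0.16 to 0.45, and none of the 5 passed the test.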
